A study of Mus musculus with 8 samples.

Results

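AMPA and kainate receptor subunits were examined in the brain cortexes of mice on a normal or a high fat diet (HFD). The members were chosen by gene name and comprised 9 of the 13996 genes with FPKM values, of which 4 encode AMPA receptor subunits (Gria1, Gria2, Gria3 and Gria4) and 5 encode kainate receptor subunits (Grik1, Grik2, Grik3, Grik4 and Grik5). All mice were male C57BL/6 and 16 weeks old. The 4 normal mice received a conventional diet, and the 4 HFD mice received, from 8 weeks of age and for 8 weeks, a diet with 60% fat by weight. The labels state that the latter group gained weight and handled glucose poorly, and they do not give the composition of the conventional diet. RNA was depleted of rRNA and 1 stranded library was sequenced per mouse. Each value is an FPKM (sequenced fragments of a gene, scaled to transcript length and to the size of the library), summed over the isoforms of a gene, so splice variants and edited transcripts of a subunit are not told apart. Because of the scaling to length, levels of different subunits can be set side by side. The depth of each library is unknown.

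AMPA and kainate receptors are glutamate-gated cation channels built from 4 subunits. AMPA receptors, made of the GluA subunits that the Gria genes encode, carry most of the fast excitatory current at cortical synapses, and the edited GluA2 subunit makes them nearly impermeable to calcium. Kainate receptors act on both sides of the synapse. The subunits of Grik1, Grik2 and Grik3 can form channels by themselves, whereas those of Grik4 and Grik5 bind glutamate with high affinity and need one of the former to form a working channel.

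HFD mice held more Grik3 and Grik5 mRNA, by 1.52-fold and 1.47-fold, and less Grik2 and Gria1 mRNA, with normal mice 1.23-fold and 1.13-fold higher. The other 5 subunits did not pass the test. It compared log2(FPKM + 0.1) between diets with limma (a two-sided test, p-values adjusted by Benjamini-Hochberg for the 13982 genes tested), and a gene was called at an adjusted p below 0.05. Fold changes are on that scale, which slightly understates the change of genes with low FPKM. By this rule 4 of 9 subunits were called, against 33.1% of all genes tested. Of these 2 were higher on the high fat diet, where the background was 17.7%, and 2 were lower, where it was 15.3%. The share of called subunits, 44.4%, lies near the background, so the count by itself does not set the family apart. Only Grik3 (1 of 9) was called with a change of more than 50%, against 7.13% of all genes. The FPKM values of the diets did not overlap for 4 of the 9 subunits, against 31.9% of all genes. The sources used here do not say how the mice were housed. The p-values set the difference between diets against the spread among these mice within each diet, as limma estimates it.

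The sequences before the start of Grik3, Grik5 and Grik2 are shown because these are the called kainate subunits, the first 2 higher and the third lower on the high fat diet. Each covers the 250 bases that precede the RefSeq start site (GRCm38.p6), printed 5' to 3' on the strand of the gene. Capitals mark GGGCGG, the GC box bound by Sp-family factors, or its reverse complement CCGCCC.
Grik3 (chr4:125490446-125490695, plus strand): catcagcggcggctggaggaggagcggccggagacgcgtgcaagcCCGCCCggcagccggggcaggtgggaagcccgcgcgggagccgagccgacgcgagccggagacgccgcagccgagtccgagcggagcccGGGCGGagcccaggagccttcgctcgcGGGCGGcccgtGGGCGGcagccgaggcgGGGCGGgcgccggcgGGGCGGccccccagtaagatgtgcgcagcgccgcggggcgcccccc
Grik5 (chr7:25072370-25072619, minus strand): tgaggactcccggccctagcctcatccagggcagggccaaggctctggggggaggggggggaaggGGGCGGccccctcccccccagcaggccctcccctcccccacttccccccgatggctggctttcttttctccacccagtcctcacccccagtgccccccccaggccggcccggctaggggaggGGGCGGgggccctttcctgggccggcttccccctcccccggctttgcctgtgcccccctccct
Grik2 (chr10:49788755-49789004, minus strand): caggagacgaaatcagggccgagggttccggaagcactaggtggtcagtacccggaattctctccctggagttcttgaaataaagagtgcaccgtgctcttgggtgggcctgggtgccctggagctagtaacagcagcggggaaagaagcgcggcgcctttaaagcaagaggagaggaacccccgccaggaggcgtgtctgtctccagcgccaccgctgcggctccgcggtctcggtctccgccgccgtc
The Grik3 window held 6 GC boxes, the Grik5 window 2 and the Grik2 window 0. Among 32851 RefSeq promoter windows of the same length, 32.7% held at least 1. The GC content was 82.0% for Grik3, 75.2% for Grik5 and 62.8% for Grik2, against a median of 52.4% over all windows. Neither TGACGTCA, the cyclic AMP response element (in 1.55% of windows), nor TATAAA (in 12.4%) was present on either strand of the 3 windows, so no GC box overlapped one of them. RefSeq windows were used for 6 of the 9 subunits. Those of Gria2 and Gria4 held 0 GC boxes and that of Grik4 held 1. These matches describe letters and not bound sites.

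Among kainate subunits, Grik3 showed the largest change. Grik3 encodes GluK3, a subunit with low glutamate affinity (ENSMUSG00000001985.9, chromosome 4 of GRCm38, 125490700 to 125714173, plus strand). Its FPKM was 10.8, 9.7, 9.0 and 11.3 in normal mice 1 to 4 and 15.0, 15.3, 16.1 and 15.7 in HFD mice 1 to 4. Every HFD mouse lay above every normal mouse. The mean increased from 10.2 ± 1.04 (SD, n = 4) to 15.5 ± 0.479 (SD, n = 4), a log2 change of 0.61 (SE 0.07, limma adjusted p = 0.000864). The increase stayed past the threshold in all 8 fits that left out 1 mouse. Without normal mouse 2 or 3 it was 0.58 or 0.55, just under a 50% change.

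Grik5 encodes GluK5, a subunit with high glutamate affinity (ENSMUSG00000003378.9, chromosome 7, 25009849 to 25072346, minus strand). Normal mice 1 to 4 held 24.7, 19.2, 19.9 and 26.5 FPKM, and HFD mice 1 to 4 held 32.5, 32.9, 33.7 and 32.5. The HFD mice lay close together and above each normal mouse, while the normal mice formed a lower pair (2 and 3) and a higher pair (1 and 4). The mean increased from 22.6 ± 3.58 to 32.9 ± 0.566, a log2 change of 0.55 (SE 0.10, limma adjusted p = 0.00334). The change exceeded 50% without normal mouse 1 (0.60) or normal mouse 4 (0.64). It was smaller without normal mouse 2 (0.48) or normal mouse 3 (0.50).

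Grik2 encodes GluK2, a core channel-forming subunit and a target of RNA editing (ENSMUSG00000056073.16, chromosome 10, 49094833 to 49788766, minus strand). It decreased from 33.1, 37.9, 41.3 and 35.1 FPKM in the normal mice to 29.5, 32.4, 26.5 and 31.2 in the HFD mice. The diets did not overlap, but the lowest normal mouse (33.1) and the highest HFD mouse (32.4) were nearly equal. The means were 36.9 ± 3.56 and 29.9 ± 2.56, with a log2 change of -0.30 (SE 0.08, limma adjusted p = 0.0207). The call was lost without normal mouse 2 (log2 change -0.28, limma adjusted p = 0.0544) and without HFD mouse 1 (log2 change -0.29, limma adjusted p = 0.0506), with the size of the change nearly kept.

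Grik1 and Grik4 had the lowest levels and did not pass the test. Grik1, which encodes GluK1 (ENSMUSG00000022935.16, chromosome 16, 87895900 to 88290265, minus strand), was at 4.6, 5.2, 6.8 and 5.4 FPKM in normal mice and at 8.1, 6.3, 5.9 and 6.7 in HFD mice. Normal mouse 3 lay above 3 of the HFD mice. Its log2 difference was 0.29 (SE 0.13, 95% confidence interval 0.00 to 0.59, limma adjusted p = 0.11), and without normal mouse 3 it passed at 0.40 (limma adjusted p = 0.0333). Grik4, which encodes the high-affinity subunit GluK4 (ENSMUSG00000032017.14, chromosome 9, 42518135 to 42944493, minus strand), was at 5.9, 6.2, 5.7 and 6.2 FPKM on the normal diet and at 6.0, 6.5, 6.4 and 5.5 on the HFD. Its log2 difference was 0.02, with a 95% confidence interval from -0.14 to 0.18, and the values of the diets overlapped. Rounding to 0.1 FPKM limits the precision of these 2 genes.

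**Figure D1:**
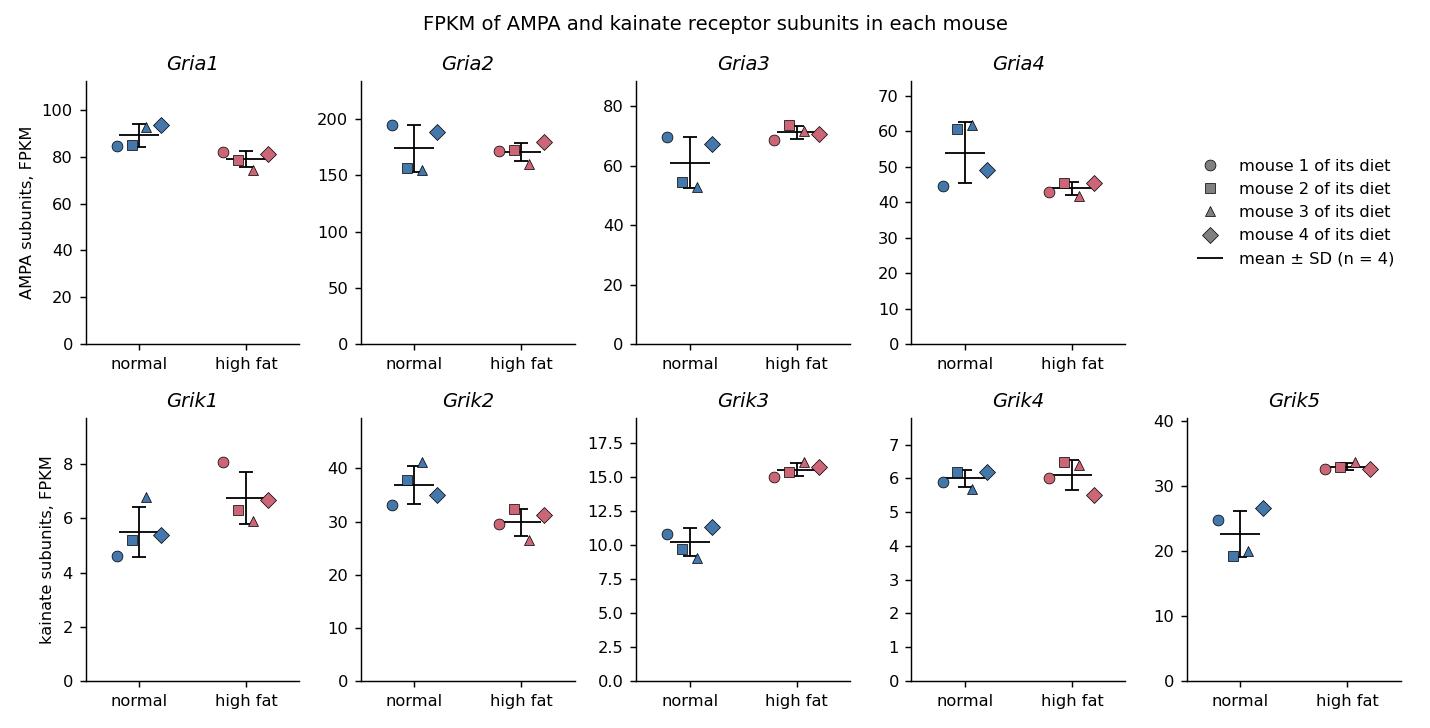
FPKM of each receptor subunit (y axes from 0, own scale per gene) in the 4 normal (blue) and 4 HFD (red) mice, with the mean and SD in black. Grik3 and Grik5 lay higher in every HFD mouse, Grik2 and Gria1 lay lower, and normal mice 2 and 3 stood together for Gria2, Gria3, Gria4 and Grik5.

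Among AMPA subunits, only Gria1 was called, and the change was small. Gria1 encodes GluA1, the subunit best known for activity-dependent insertion into synapses (ENSMUSG00000020524.16, chromosome 11, 57011387 to 57330244, plus strand). Its FPKM was 84.8, 84.9, 92.9 and 93.6 in normal mice and 82.2, 78.8, 74.2 and 81.2 in HFD mice. The diets did not overlap, with a gap of a few FPKM between them. The mean decreased from 89.1 ± 4.86 to 79.1 ± 3.56, a log2 change of -0.17 (SE 0.05, limma adjusted p = 0.0339). The call was lost without normal mouse 3 (limma adjusted p = 0.082), normal mouse 4 (0.0743) or HFD mouse 2 (0.0763) or 3 (0.0815), with quantile normalization (0.0743) and without the variance trend (0.0595). The log2 change lay between -0.17 and -0.14 in these fits.

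Gria2 encodes GluA2, which sets the calcium permeability of AMPA receptors (ENSMUSG00000033981.14, chromosome 3, 80681450 to 80802835, minus strand). It had the highest FPKM of all 9 subunits in each mouse, 194.8, 156.1, 154.8 and 188.6 in normal mice and 171.7, 172.8, 160.3 and 179.8 in HFD mice. The HFD mice lay between the lower and the higher pair of normal mice. The log2 difference was -0.01 (95% confidence interval -0.20 to 0.17, limma adjusted p = 0.915).

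Gria3 and Gria4 did not pass the test and varied in opposite ways among the normal mice. Gria3 encodes GluA3 (ENSMUSG00000001986.16, chromosome X, 41400854 to 41678601, plus strand) and was at 69.6, 54.5, 52.7 and 67.2 FPKM in normal mice and at 68.7, 73.7, 71.6 and 70.6 in HFD mice. Gria4 encodes GluA4, a subunit of fast channels that is abundant in parvalbumin interneurons, thalamus and cerebellum (ENSMUSG00000025892.16, chromosome 9, 4417896 to 4796234, minus strand), and was at 44.5, 60.7, 61.8 and 49.0 in normal mice and at 42.8, 45.5, 41.7 and 45.5 in HFD mice. Normal mice 2 and 3 had the lowest Gria3 and the highest Gria4 of all 8 mice, whereas normal mouse 1 lay within the range of the HFD mice for both genes. The log2 difference was 0.23 for Gria3 (95% confidence interval 0.03 to 0.43, limma adjusted p = 0.0717). For Gria4 it was -0.29 (95% confidence interval -0.51 to -0.06, limma adjusted p = 0.0546). Both passed without normal mouse 1 (limma adjusted p = 0.0241 and 0.0114) and without normal mouse 4 (0.0419 and 0.046). Gria3 also passed with quantile normalization (0.0414), and Gria4 with median-ratio rescaling (0.0497).

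An exact two-sided permutation test over the 70 assignments of mice to diets gives p = 0.0286, the smallest it allows, to any gene whose diets do not overlap. For Grik3, Grik5, Grik2 and Gria1 it therefore only restates the missing overlap, which 31.9% of all genes share. For the other 5 subunits the exact p lay between 0.0571 (Gria3) and 0.943 (Gria2).

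The order of the levels differed between the diets in the kainate family. In normal mice Gria2 was highest with a mean FPKM of 174, followed by Gria1 (89.1), Gria3 (61.0), Gria4 (54.0), Grik2 (36.9), Grik5 (22.6), Grik3 (10.2), Grik4 (6.0) and Grik1 (5.5). The ranges of Gria3 and Gria4 overlapped there, as did those of Grik4 and Grik1. In HFD mice the AMPA subunits kept this order, at 171, 79.1, 71.2 and 43.9, and Grik5 (32.9) came before Grik2 (29.9), followed by Grik3 (15.5), Grik1 (6.75) and Grik4 (6.10). Only the ranges of Grik1 and Grik4 overlapped in that group.

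Subunit shares were computed per mouse as the percent of the summed FPKM of the family and are given as a description. Summed kainate FPKM was 78.2 to 84.5 in normal mice and 88.6 to 93.4 in HFD mice, with no overlap. Grik2 made up 41.8, 48.5, 49.9 and 41.5% of that sum in normal mice and 32.4, 34.7, 29.9 and 34.1% in HFD mice. Grik2 was thus the largest part of the kainate sum in each normal mouse. Grik5 made up 31.2, 24.6, 24.1 and 31.4% in normal mice 1 to 4 and 35.2 to 38.0% in HFD mice. It was the largest part in each HFD mouse. The share of Grik3 was 10.9 to 13.7% and 16.4 to 18.2%, again without overlap. The ratio of Grik2 to Grik5 FPKM was 1.34, 1.97, 2.08 and 1.32 in normal mice 1 to 4 and between 0.786 and 0.985 in HFD mice.

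Summed AMPA FPKM overlapped between the diets, at 356 to 398 in normal mice and 348 to 377 in HFD mice. Gria2 made up 45.8 ± 3.12% (SD, n = 4) of it in normal mice and 46.8 ± 0.67% (SD, n = 4) in HFD mice. Gria3 was the only AMPA subunit whose share did not overlap, with 14.5 to 17.7% in normal mice and 18.7 to 20.6% in HFD mice. The ratio of Gria4 to Gria3 was 1.11 and 1.17 in normal mice 2 and 3, 0.639 and 0.729 in normal mice 1 and 4, and 0.582 to 0.644 in HFD mice. The ratio of the AMPA sum to the kainate sum was 4.38 to 4.98 in normal mice and 3.93 to 4.12 in HFD mice.

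**Figure D2:**
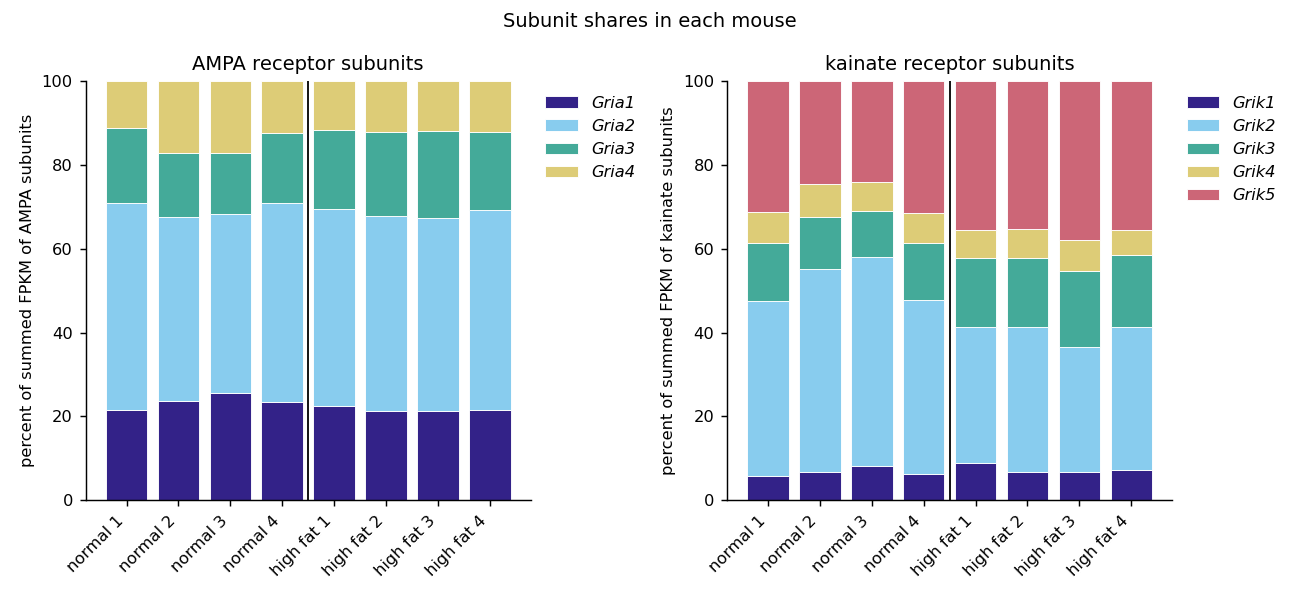
Share of each subunit in the summed FPKM of its family (percent, stacked bars, 1 bar per mouse). Grik2 took 41.5 to 49.9% of the kainate sum in normal mice and 29.9 to 34.7% in HFD mice, and the Gria4 band was widest in normal mice 2 and 3.

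The marker genes of other brain regions moved with the diet and among the normal mice. Of 10 cerebellar markers 8 had values, and their summed FPKM was 20.5, 253.9, 345.1 and 76.1 in normal mice 1 to 4 and 14.1 to 17.2 in HFD mice. Of the 7 that could be tested, 6 were lower on the high fat diet and 0 higher. Gabra6, a granule cell GABA receptor subunit, was at 1.7, 46.5, 61.7 and 12.2 in normal mice and at 0.0 to 0.2 in HFD mice. For the thalamus (5 of 6 with values) the sum was 32.6, 83.2, 71.3 and 22.7 in normal mice and 19.4 to 22.7 in HFD mice, with 2 genes lower and 0 higher. Of 10 striatal markers 9 had values and all 9 were lower. Their sum was 456.3, 374.4, 352.8 and 249.2 in normal mice 1 to 4, highest in mouse 1, and 88.8 to 105.2 in HFD mice. The summed level of cortical glutamatergic neuron markers was 396.6, 296.6, 277.2 and 424.1 in normal mice and 469.7 to 554.6 in HFD mice, and 6 of 8 were higher, with 0 lower. Slc17a7, the vesicular glutamate transporter of cortical excitatory neurons, was at 209.5 to 315.8 FPKM in normal mice and at 337.1 to 403.9 in HFD mice, so the defining marker of the labelled tissue was present in every library. In bulk tissue, a differing amount of tissue from other regions, fewer cells of a type and less RNA per cell cannot be told apart. The sources used here do not describe how the cortex was dissected in each mouse, and its part in these values was not tested.

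Normal mice 2 and 3, with the highest cerebellar and thalamic sums, were also the normal mice with the lowest Gria2, Gria3, Grik3 and Grik5 and the highest Gria4 and Grik2. When both were left out, an alternative added after seeing the data, 2 of 9 subunits stayed past the threshold, against 19.62% of all genes in that fit. These were Grik3, with a log2 change of 0.49 (SE 0.06, limma adjusted p = 0.00369), and Grik5, with 0.36 (SE 0.05, limma adjusted p = 0.00555). Gria1 kept its size (-0.17, limma adjusted p = 0.087), Grik2 was at -0.19 (0.132), Gria4 at -0.09 (0.324) and Gria3 at 0.06 (0.433). Gria2 was at -0.16 (95% confidence interval -0.30 to -0.03, limma adjusted p = 0.0815) and Grik1 at 0.42 (0.0596), both farther from 0 than over all mice. With the mean log2 level of the cerebellar markers as a covariate, 0 of the 9 subunits passed the adjusted threshold of limma. Of all 13982 genes, 431 (3.08%) passed it. An unadjusted limma p below 0.05 was reached by 3 subunits (Gria2, Grik1 and Grik3) and by 3190 of all genes. Grik3 was then at 0.40 (SE 0.11, limma adjusted p = 0.0732), Grik5 at 0.23 (SE 0.12, adjusted p = 0.297), Grik2 at -0.05 (SE 0.11) and Gria1 at -0.12 (SE 0.09). Gria2 and Grik1 lay farther from 0 than without the covariate, Gria2 at -0.30 (95% confidence interval -0.52 to -0.08, limma adjusted p = 0.115) and Grik1 at 0.61 (0.16 to 1.07, limma adjusted p = 0.122). The cerebellar level itself was lower in every HFD mouse (sum 14.1 to 17.2) than in any normal mouse (20.5 to 345.1). The striatal and the cortical glutamatergic sums of the diets did not overlap either. The part of these lists and that of the diet cannot be told apart, also in the fit with the covariate.

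**Figure D3:**
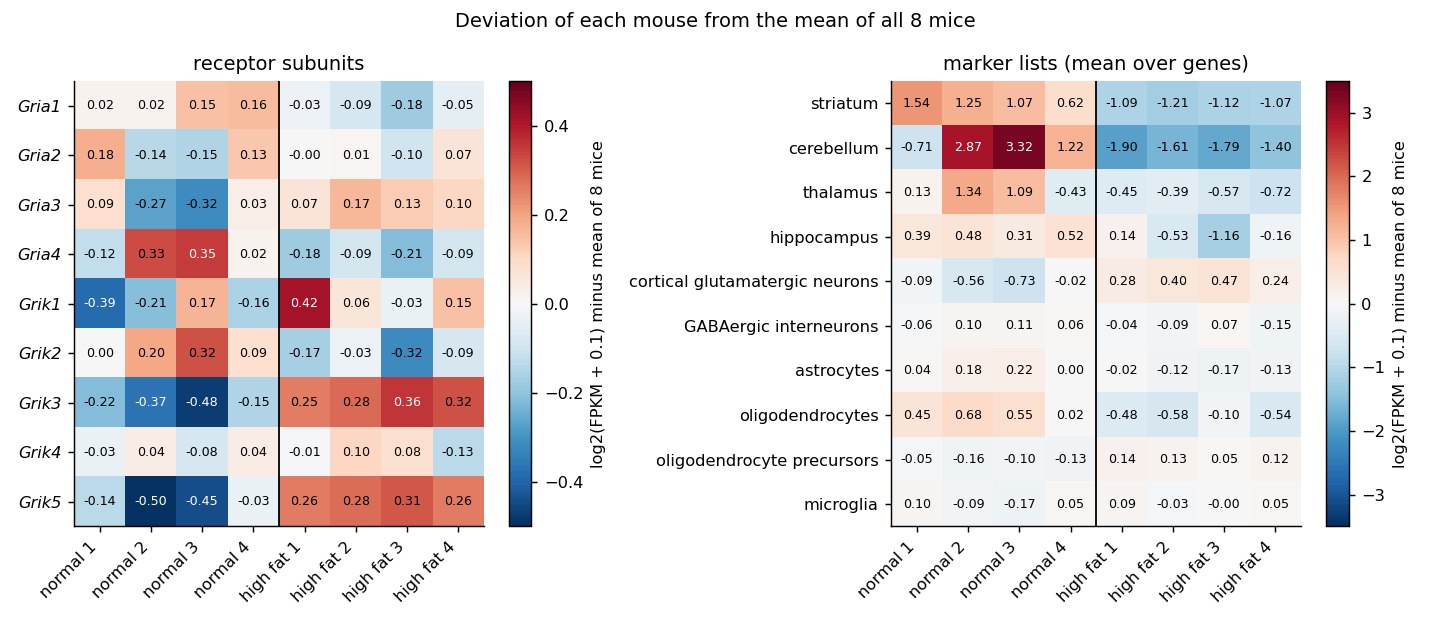
Deviation of each mouse from the mean of all 8 mice on the log2(FPKM + 0.1) scale, for the 9 subunits (left, colours to ±0.5) and for 10 marker lists averaged over their genes (right, colours to ±3.5). Normal mice 2 and 3 had the highest cerebellar and thalamic values, with low Gria3, Grik3 and Grik5 and high Gria4 in the same columns.

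**Figure D4:**
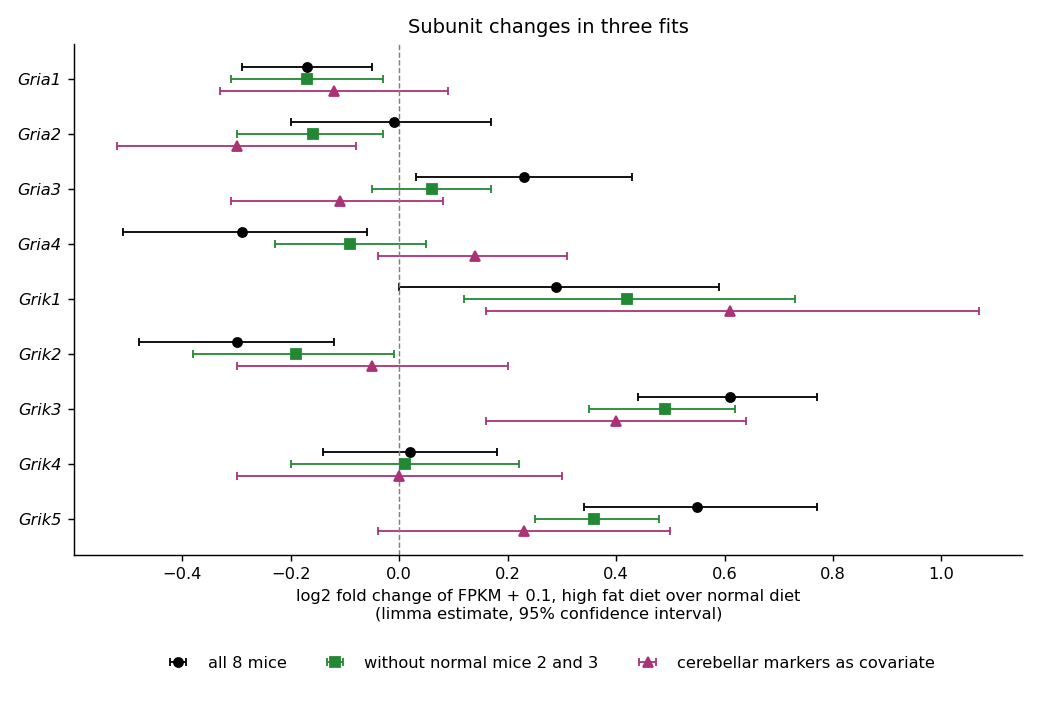
Log2 change (high fat diet over normal diet, x axis) with its 95% confidence interval for each subunit, from all 8 mice (circles), without normal mice 2 and 3 (squares) and with cerebellar markers as a covariate (triangles). The interval of Grik3 lay above 0 in each fit and that of Grik5 in all but the one with the covariate (-0.04 to 0.50), and Gria3 and Gria4 changed sign with the covariate (-0.11 and 0.14).

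Markers of other cell types and of the hippocampus were read in the same way. Oligodendrocyte markers were lower for 6 of 6 genes, at 2019.1 to 3338.7 against 1396.4 to 1937.4, and 2 of 4 tested hippocampal markers were lower, at 18.1 to 21.0 against 8.8 to 16.1. Of 7 interneuron markers 2 were higher and 4 lower. The higher ones were Vip (log2 change 0.65) and Lhx6 (0.49), and Sst did not pass. Pvalb, the calcium-binding protein of fast-spiking interneurons and Purkinje cells, was among the lower ones. It was at 50.1, 140.3, 145.8 and 60.5 in normal mice and at 33.4 to 55.6 in HFD mice. Astrocyte markers overlapped in sum (689.1 to 713.6 and 682.4 to 724.3) with 1 of 6 higher and 2 lower, and of the 2 precursor markers of oligodendrocytes 1 was higher. Of 5 microglial markers 0 were called. The part of these lists in the subunit levels was not tested.

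Genes that act with the subunits were read from lists of receptor biology, chosen with earlier results of these data known. Of 41 such genes, 40 were tested and 19 called (47.5%, against 33.1% of all genes). On the high fat diet 11 were higher and 8 lower, where 17.7% and 15.3% of all genes were, and their median log2 difference was 0.16, against 0.02 for the 9 subunits and 0.003 for all genes. With the cerebellar covariate 0 of the 40 passed the adjusted threshold of limma, against 3.08% of all genes. An unadjusted limma p below 0.05 was reached there by 12 of the 40 and by 3190 of all 13982 genes. Without normal mice 2 and 3, 13 passed the adjusted threshold, against 19.62% of all genes.

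Of 14 AMPA receptor auxiliary subunits 4 were higher, 4 lower and 6 not called. Cacng3, the transmembrane regulatory protein gamma-3, increased from 15.8 ± 4.29 to 26.6 ± 2.34 FPKM (SD, n = 4), a log2 change of 0.79 (limma adjusted p = 0.00759), and its normal mice split as 12.3 and 11.8 (mice 2 and 3) against 19.1 and 19.8 (mice 1 and 4). Shisa7 increased from 9.9 ± 1.71 to 16.6 ± 0.412 (log2 change 0.75, limma adjusted p = 0.00141). Cacng5 decreased from 4.15 ± 1.33 to 1.73 ± 0.386, a log2 change of -1.18. Cacng4 (log2 change -0.67) and Syndig1, a synaptic AMPA receptor partner (-0.66), also decreased. Gria3 and Cacng3 were thus both lowest in normal mice 2 and 3, whereas Gria4 was highest there.

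Neto1 and Neto2 are the auxiliary subunits of kainate receptors. Neto2 decreased from 26.8, 26.6, 25.8 and 25.3 FPKM in normal mice to 18.3, 20.7, 19.9 and 21.4 in HFD mice, a log2 change of -0.38 (SE 0.06, limma adjusted p = 0.00149). The normal mice lay close together, mice 2 and 3 included. Neto1 was at 14.1 ± 2.66 and 16.3 ± 0.457 FPKM and did not pass (log2 difference 0.23, limma adjusted p = 0.16).

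Among NMDA and delta receptor subunits 4 of 8 tested were higher and 1 lower. Grin2b, at 38.3 to 55.4 FPKM in normal mice, was at 62.4 to 67.7 in HFD mice (log2 change 0.50, limma adjusted p = 0.0108), and Grid1 increased from 12.9 ± 1.49 to 16.5 ± 0.978 (log2 change 0.36, limma adjusted p = 0.0107). Grin2c, the NMDA subunit typical of cerebellar granule cells and astrocytes, was the lower one, at 16.1 ± 4.66 FPKM in normal mice and 9.42 ± 0.574 in HFD mice (log2 change -0.72, limma adjusted p = 0.0116).

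Of 13 scaffolds and trafficking partners 3 were higher, 0 lower and 10 not called. The neuronal pentraxin receptor Nptxr increased from 109 ± 17.4 to 162 ± 10.9 FPKM (log2 change 0.58, limma adjusted p = 0.00363), and Epb41l1, which links GluA1 to the cytoskeleton, from 77.1 ± 5.31 to 90.2 ± 4.29 (log2 change 0.23, limma adjusted p = 0.0164). Among the adenosine deaminases acting on RNA, Adarb1, which edits the pore codon of Gria2, decreased from 40.6 ± 3.41 to 34.7 ± 2.26 (log2 change -0.22, limma adjusted p = 0.0337). Adarb2, without known editing activity, decreased from 5.65 ± 0.238 to 4.30 ± 0.115 (log2 change -0.39, limma adjusted p = 0.00257). The third, Adar, was at 37.3 ± 1.24 and 38.5 ± 1.11 and did not pass. Editing itself cannot be read from FPKM.

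**Figure D5:**
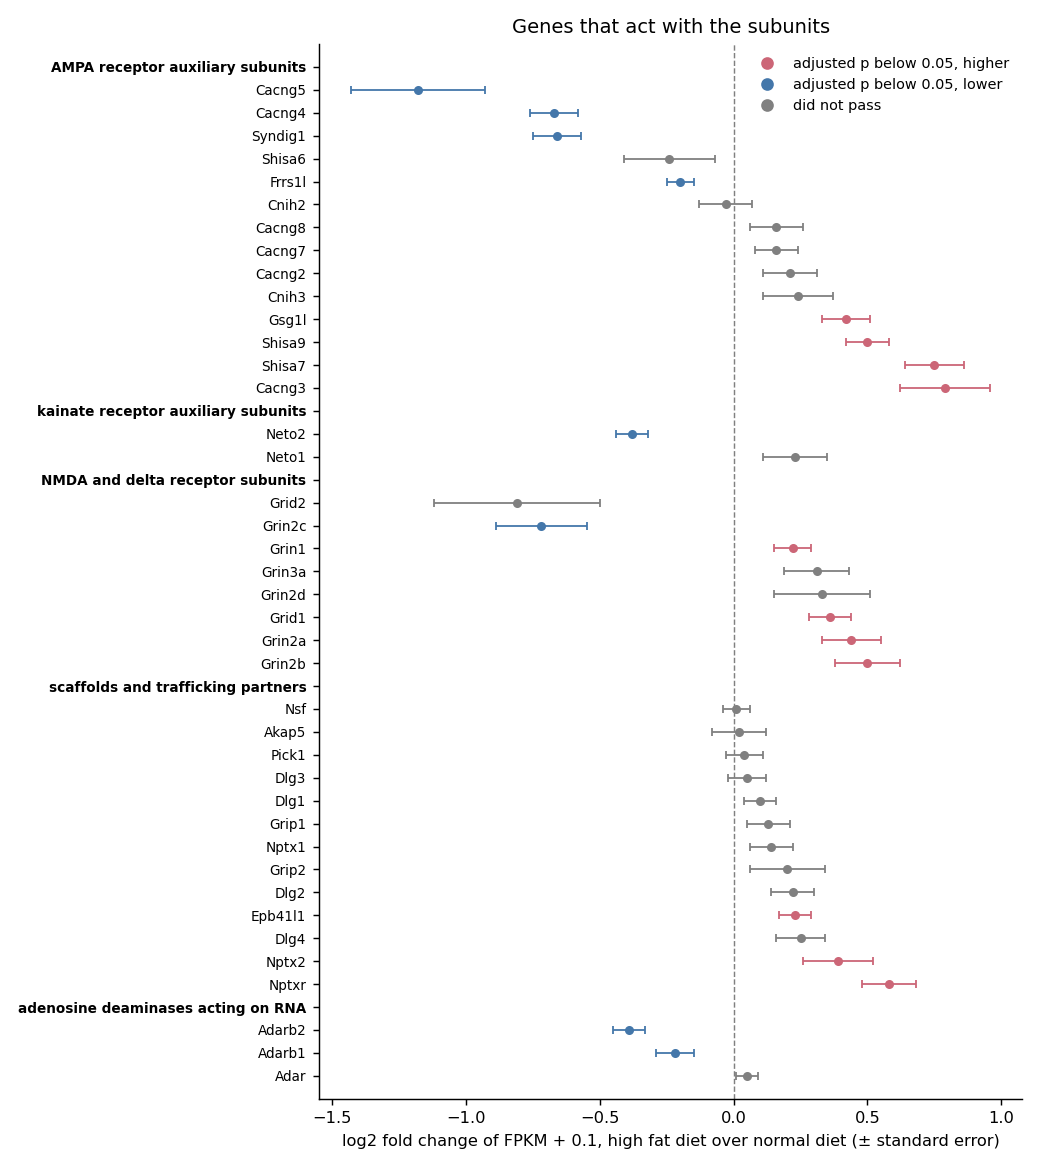
Log2 change (high fat diet over normal diet, x axis) with its standard error for 40 genes that act with the subunits, grouped by list. Red and blue points passed the adjusted threshold (11 higher, 8 lower) and grey points did not.

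The genes whose profile over the 8 mice was most like that of each called subunit were found by the root mean square difference of centred log2(FPKM + 0.1), among 6891 other genes whose mean FPKM reached 10. For Grik3 they were Flrt2 (0.049) and Arnt2 (0.052). Those nearest to Grik5 were Mpp2 (0.045) and Pcdh1 (0.046). Wwp1 (0.038) and Npm1 (0.039) lay nearest to Grik2, and Cfap20 (0.031) and RP23-73B23.4 (0.033) nearest to Gria1. Flrt2, for example, was at 20.0, 17.5, 16.7 and 21.6 FPKM in normal mice and at 26.6 to 28.3 in HFD mice, with the same pair of low normal mice as Grik3. This likeness is a description over 8 mice and contains the difference between diets.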

How the data were processed

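Cortex RNA of 8 mice (4 per diet) was measured with 1 rRNA-depleted, stranded, paired-end library per mouse. The authors deposited FPKM values from Cuffnorm, made with GENCODE M17 (GRCm38.p6) from STAR alignments to mm10, after FastQC and Trimmomatic. No tool version is given in the sources. FPKM was rounded to 0.1 and summed to 562431 to 639142 per mouse, so library depth is unknown and no counting interval can be given. Their filter (mean FPKM of at least 1, no FPKM of 0) was applied, which leaves 13982 of 13996 genes.

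The limma 3.58.1 model (R 4.3.3, variance trend) was fitted to log2(FPKM + 0.1) of all genes and used in place of the t-test of the study, and it was tested on simulated data. The study also required a significant change in a second pipeline (Salmon and edgeR), which was not repeated here. Other values were computed with Python 3.11.15, numpy 2.4.6 and pandas 2.3.3, and figures with matplotlib 3.10.9. Gene positions come from GENCODE M21 (GRCm38), and all 9 identifiers matched. Promoter windows are from RefSeq. Members and lists were chosen with earlier results of these data known. Named genes were all members, in each related list the 2 smallest adjusted p and every called change over 50%, and the 2 most similar profiles of each called member. Marker lists were read by counts, sums and their first gene. Pvalb, Vip, Lhx6, Sst and Adar were named after their values were seen. Same-numbered mice of the diets did not deviate together, and the numbers are only names. Alternatives were other added constants, filters, scalings, no variance trend, a replicate block, a cerebellar covariate, an exact permutation test and each mouse left out in turn.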

Additional observations from a re-analysis of the deposited data

Results flagged for a closer look

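Of 68 groups of 4 mice examined for a mouse far from the other 3 (Dixon's ratio of gap to range above its 95% critical value, which chance alone passes in about 1 in 20 groups), 1 stood out. HFD mouse 3 had a Grik5 share of 38.0% of the kainate sum, against 35.2 to 35.7% in the other 3, with a ratio of 0.84. The same mouse had the lowest Grik2 FPKM of all 8 mice (26.5), which lowers the sum, and its Grik5 FPKM (33.7) was the highest. The cause was not tested.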

How the results depend on the processing

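The count of called subunits, 4 of 9, ranged from 3 to 6 when single mice were left out, where the count over all genes was 3295 to 4619 and that of the related genes 16 to 22. It was 2 with the replicate block, where 24.25% of all genes (3390) were called, 0 with the cerebellar covariate and 2 without normal mice 2 and 3 (added after seeing the data). The count over all genes, 4626, fell to 431 with that covariate and to 2743 without those mice, and the related genes, 19, to 0 with the covariate. The 1 subunit called with a change over 50% became 0 with an added constant of 1, with the covariate and without normal mice 2 and 3, and 0 to 2 with single mice left out. With the covariate Gria3 was at -0.11, Gria4 at 0.14 and Grik4 at -0.00017 on the log2 scale, opposite to their sign over all mice. Gria2, at -0.01 over all mice, was at -0.30 with the covariate, at -0.16 without normal mice 2 and 3, at 0.02 with quantile normalization and between -0.07 and 0.04 with single mice left out, and Grik4 between -0.01 and 0.07. None of these 4 subunits was called over all mice. The replicate block kept Grik3 and Grik5 (limma adjusted p = 0.00896 and 0.0142) and lost Grik2 and Gria1 (0.0537 and 0.0809). The correlations of same-numbered mice, -0.109 to -0.028, show no pairing, and the block fit has fewer residual degrees of freedom. With single mice left out, the difference in share (HFD minus normal) lay between -14.0 and -11.2 percentage points for Grik2. It lay between 7.06 and 9.49 for Grik5 and between -0.0406 and 2.21 for Gria2. With 4 mice per diet, leaving out 1 cannot move such a difference by the SD pooled over diets, so a smaller move is no test. Rounding to 0.1 FPKM and the unknown depth limit Grik1 and Grik4 most.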
